A study of Mus musculus with 4 samples.

Results

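The 6 mouse Dlx genes, Dlx1 to Dlx6, were followed here as 3 gene pairs through the H3K27me3 and H3K4me3 regions of rosette stem cells. All regions that overlapped the windows of the pairs on mouse build mm9 were taken: chromosome 2 from 71.34 to 71.41 Mb for Dlx1 and Dlx2, chromosome 6 from 6.80 to 6.85 Mb for Dlx5 and Dlx6, and chromosome 11 from 94.97 to 95.03 Mb for Dlx3 and Dlx4. They numbered 33 of 76945 regions in all. Of these, 6 were H3K27me3 regions of the CGR8 line and 5 of the R1 line, and 10 were H3K4me3 regions of CGR8 and 12 of R1.

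Each mark was mapped by chromatin immunoprecipitation and sequencing in 1 library of each line, CGR8 (129/Ola) and R1 (129). Both lines were embryonic stem cells, kept for 8 days in N2B27, a serum-free medium, to which LIF, the WNT secretion blocker IWP2 (2 µM) and the MEK inhibitor PD325901 (1 µM) were added. Naive and primed cells were not analysed here, so no value below shows a change on entering the rosette state. Each line is a single culture per mark, so a difference between CGR8 and R1 has no replicate check and no p-value is given.

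Dlx genes encode homeodomain transcription factors related to Distal-less of Drosophila. In mammals they lie in pairs whose genes face each other and share enhancers. Dlx1 and Dlx2 direct the making of inhibitory neurons in the ventral forebrain, with Dlx5 and Dlx6 acting later in the same neurons, and Dlx5 and Dlx6 also pattern the lower jaw and the limb. Dlx3 is needed for the placenta, skin, hair and teeth, and Dlx4 is its partner on the chromosome. H3K27me3, set by Polycomb repressive complex 2, covers many developmental regulators in pluripotent cells, and where H3K4me3, a promoter mark, is found with it, the chromatin is called bivalent. No expression was measured in these libraries.

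Of the 6 genes, 2 had a promoter in the RefSeq table used here, which is on build GRCm38.p6, not on the build of the region lists. The promoters of Dlx1 (chr2:71529195-71529494, plus strand) and Dlx2 (chr2:71546705-71547004, minus strand) are shown because no other gene of the 6 had one there. A promoter of Dlx6os1 (chr6:6869484-6869783, minus strand), a noncoding RNA gene that lies across Dlx6, is shown beside them for its different base composition. Each runs from 250 bases before to 50 bases after the start, 5′ to 3′, and capitals mark CG dinucleotides.
Dlx1: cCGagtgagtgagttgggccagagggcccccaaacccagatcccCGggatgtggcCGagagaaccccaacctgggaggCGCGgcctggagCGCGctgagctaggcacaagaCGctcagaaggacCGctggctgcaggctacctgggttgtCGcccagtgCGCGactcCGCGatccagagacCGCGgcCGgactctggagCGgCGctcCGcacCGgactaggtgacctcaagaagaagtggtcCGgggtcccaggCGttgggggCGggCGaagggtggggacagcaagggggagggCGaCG
Dlx2: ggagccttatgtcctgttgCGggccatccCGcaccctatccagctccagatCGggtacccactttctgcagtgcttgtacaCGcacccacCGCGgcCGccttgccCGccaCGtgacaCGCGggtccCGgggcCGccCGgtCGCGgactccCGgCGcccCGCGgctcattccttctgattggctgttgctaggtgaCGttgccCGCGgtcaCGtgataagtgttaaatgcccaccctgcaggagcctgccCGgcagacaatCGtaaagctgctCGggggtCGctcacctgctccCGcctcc
Dlx6os1: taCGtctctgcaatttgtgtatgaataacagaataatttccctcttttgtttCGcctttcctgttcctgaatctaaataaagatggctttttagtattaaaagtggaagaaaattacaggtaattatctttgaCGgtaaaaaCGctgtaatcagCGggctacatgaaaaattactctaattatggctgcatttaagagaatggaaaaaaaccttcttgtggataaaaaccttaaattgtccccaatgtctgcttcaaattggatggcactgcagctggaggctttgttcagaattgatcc

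The Dlx1 promoter held 27 CG dinucleotides and the Dlx2 promoter 29, against a median of 7 over 32851 promoters of that length. Of all promoters, 84.5% had fewer CG dinucleotides than Dlx1 and 87.1% fewer than Dlx2. The observed over expected CG ratio was 0.767 for Dlx1 and 0.898 for Dlx2, against a median of 0.384. The Dlx6os1 promoter shown held 5 and another promoter of that gene 3, while those of Dlx6os2 and Dlx4os held 10 and 11. Their observed over expected ratios were 0.525 and 0.321 for Dlx6os1, 0.50 for Dlx6os2 and 0.516 for Dlx4os. All 4 noncoding RNA promoters thus held fewer CG dinucleotides than the 2 gene promoters, although Dlx6os2 and Dlx4os exceeded the median count and 3 of the 4 the median ratio.

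**Figure D1:**
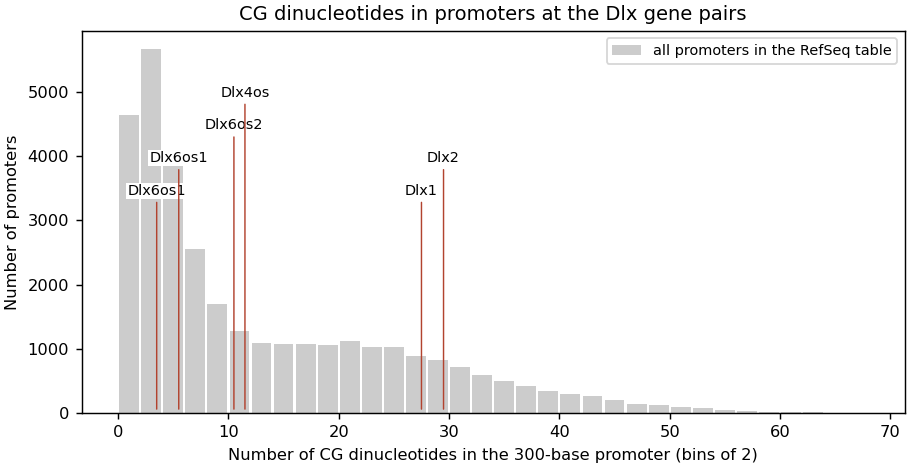
Number of CG dinucleotides per 300-base RefSeq promoter (x axis, bins of 2) against the number of promoters (y axis, grey bars). Red lines mark promoters at the Dlx pairs, with Dlx1 at 27 and Dlx2 at 29, far above the median of 7, and the Dlx6os1 promoters at 3 and 5.

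Short motifs were searched in these promoters on both strands. CCAAT occurred once in the Dlx2 promoter and is found in 37.4% of all promoters. CACGTG, the E-box read by basic helix-loop-helix factors, occurred at 2 positions in Dlx2 and is found in 7.15% of all promoters. Neither motif was found in the Dlx1 promoter, and TATAAA, found in 13.6% of all promoters, was in neither gene's. TAATT, the core that DLX and many other homeodomains bind, occurred at 7 positions in the Dlx6os1 promoter shown and at 4 in the other promoter of that gene, against 27% of all promoters with at least 1. It occurred at 1 position in Dlx6os2 and at none in Dlx1, Dlx2 or Dlx4os. TAATT holds only A and T, and the Dlx6os1 promoters had 35.7% and 35.3% G and C, against 69.3% for Dlx1, 66.3% for Dlx2 and a median of 52.7% over all promoters. TAATT can share bases with TATAAA and with CCAAT on the other strand, and CACGTG holds a CG dinucleotide. The sequence TAATTA, present in both Dlx6os1 promoters, counts at 2 positions, 1 on each strand. Separate TAATT sites there are therefore fewer than the positions. A match is a string of letters, not a bound site.

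The first comparison asked whether a single H3K27me3 region spans each gene pair. On chromosome 2 a single broad region lay in the window in both lines and filled 60.3% of it in CGR8 and 54.0% in R1. The region was 42.2 kb wide in CGR8, from 71351201 to 71393400, and 37.8 kb wide in R1, from 71356001 to 71393800, and it overlapped every H3K4me3 region called in the window. The authors' score, a value per region with no unit, was 4051 in CGR8 and 3999 in R1. These scores ranked 26 of 14575 in CGR8 and 19 of 12511 in R1, within the highest 0.178% and 0.152% of the lists. Gene positions on mm9 were not used here, so a region is placed by the window of its pair and not by the start of a gene. Whether a region spans both genes of a pair could therefore not be shown. In the RefSeq gene order Dlx1 lies after Metap1d and is followed by the antisense gene Dlx1as and then Dlx2.

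Dlx5 and Dlx6 also lay in the window of a single H3K27me3 region, the widest of the 3 pairs. In CGR8 it was 50 kb wide, from 6791401 to 6841400, with a score of 4330 and rank 20. In R1 it was 46.2 kb wide, from 6790401 to 6836600, with a score of 3955 and rank 20. It began before the window in both lines, so that 41.4 kb of it in CGR8 and 36.6 kb in R1 fell inside. No other H3K27me3 region was called in the window, and every H3K4me3 region there overlapped this one. The gene order there is Dlx6os1, Dlx6, Dlx6os2 and Dlx5.

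Dlx3 and Dlx4 differed from the other pairs in that 3 separate H3K27me3 regions were called in each line. The first scored 907 in CGR8, at 94978601 to 94992800 (14.2 kb), and 821 in R1, at 94978201 to 94991400 (13.2 kb). The second scored 1503 in CGR8, at 94998201 to 95016800 (18.6 kb), and 1467 in R1, at 94999201 to 95014800 (15.6 kb). The third scored only 84.0 in CGR8, at 95020001 to 95027000 (7.0 kb), and 61.1 in R1, at 95021601 to 95026400 (4.8 kb), close to the lowest scores in the lists, 70.6 in CGR8 and 59.4 in R1. In this part of the chromosome Dlx3 comes first, then Gm38659, Dlx4 and Dlx4os.

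The gaps within the Dlx3 and Dlx4 window were found at overlapping places in both lines. The first and second regions lay 5.4 kb apart in CGR8 and 7.8 kb in R1, and the second and the third 3.2 kb and 6.8 kb. The smallest gap between regions of either H3K27me3 list was 800 bp, so these gaps were wider than those the authors' calling joined. The widest region held 46.7% of the H3K27me3 cover of the window in CGR8 and 46.4% in R1, against 86.1% and 100% for Dlx1 and Dlx2 and 100% in both lines for Dlx5 and Dlx6. A gap shows that no region was called there at this depth, not that the mark was absent.

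**Figure D2:**
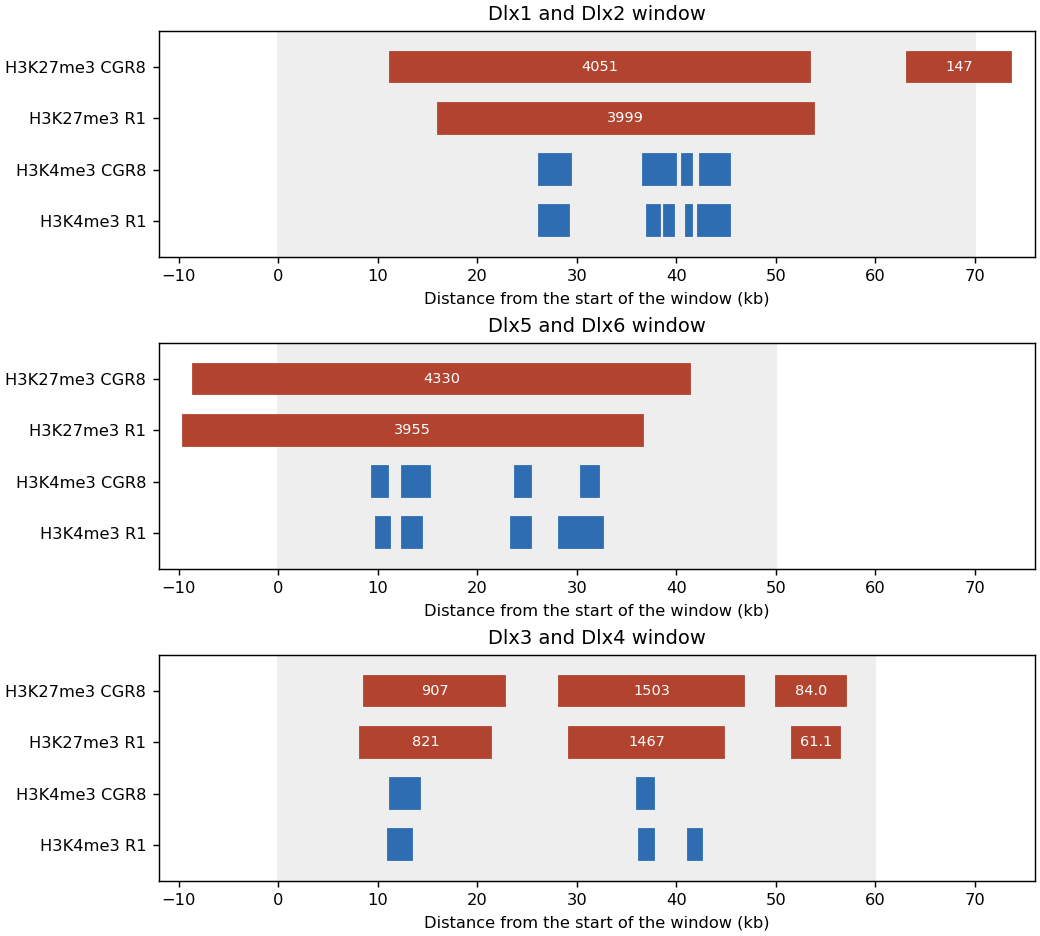
Regions of H3K27me3 (red) and H3K4me3 (blue) in CGR8 and R1 at the 3 Dlx pairs, by distance from the start of the window in kb (x axis), with the window shaded grey and the authors' score written on each H3K27me3 region. A single broad region holds all H3K4me3 regions at Dlx1 and Dlx2 and at Dlx5 and Dlx6, while 3 separate regions lie at Dlx3 and Dlx4.

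H3K27me3 covered a large part of each window. It covered 70.0% of the Dlx1 and Dlx2 window in CGR8 and 54.0% in R1, a mean of 62.0% ± 11.3 (SD, n = 2 lines). For Dlx5 and Dlx6 it covered 82.8% in CGR8 and 73.2% in R1 (mean 78.0% ± 6.79), and for Dlx3 and Dlx4 66.3% and 56.0% (mean 61.2% ± 7.31). CGR8 had more cover than R1 at every pair, as it had over the whole genome, where the list covered 134.0 Mb in CGR8 and 99.4 Mb in R1.

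The windows were set beside tiles of the same length laid end to end along the genome. At least 50% cover in both lines, as at all 3 pairs, was found in 0.541% of 70 kb tiles, 0.834% of 50 kb tiles and 0.714% of 60 kb tiles. Cover as high as that of the pair in both lines was found in 92 of 37674 tiles for Dlx1 and Dlx2, in 77 of 52745 for Dlx5 and Dlx6 and in 159 of 43954 for Dlx3 and Dlx4. The windows were chosen for their genes and the tiles were not, so these values describe where the pairs stand and test nothing.

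The Dlx regions were also high for their width. In CGR8 the Dlx1 and Dlx2 region scored higher than or equal to 94.2% of the 138 regions within 25% of its width, itself included. In R1 the share was 95.2% of 125. For Dlx5 and Dlx6 the CGR8 share was 92.6% (95 regions) and the R1 share 85.9% (64 regions). For the second Dlx3 and Dlx4 region they were 96.9% of 1464 and 98.1% of 1352, and for the first 95.7% of 2529 and 92.9% of 1943. The third Dlx3 and Dlx4 region stood at 22.2% in CGR8 and 5.49% in R1, and the CGR8 region at the edge of the Dlx1 and Dlx2 window at 41.1%. The high standing thus did not extend to the weak regions.

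**Figure D3:**
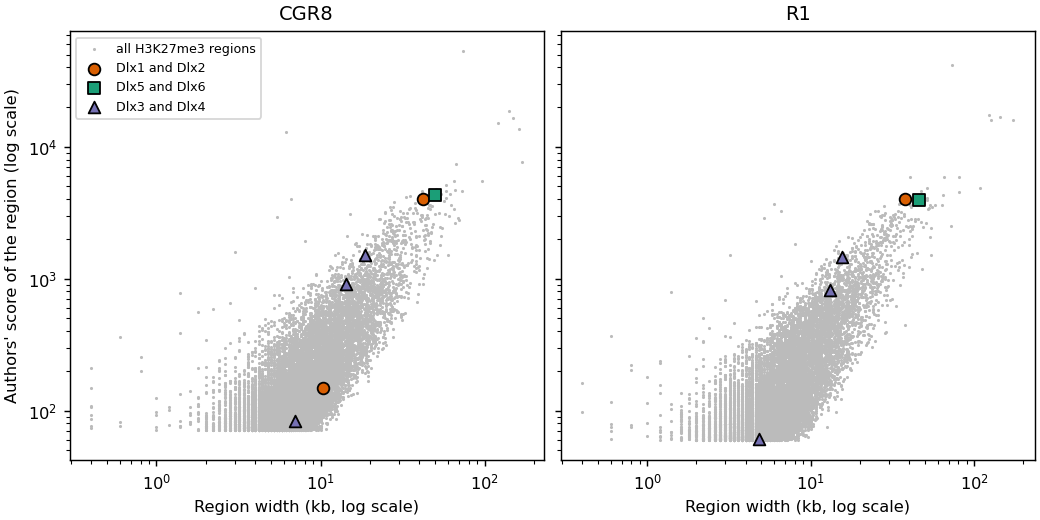
Width in kb (x axis, log scale) against the authors' score (y axis, log scale) of all H3K27me3 regions in CGR8 (left) and R1 (right), with the regions at the Dlx pairs marked. The broad regions at Dlx1 and Dlx2 and at Dlx5 and Dlx6 sit between 3955 and 4330, near the upper edge of the cloud at their width, and the low points are the third region at Dlx3 and Dlx4 and a CGR8 region at the edge of the Dlx1 and Dlx2 window.

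Per kb, the score of the Dlx1 and Dlx2 region was 96.0 in CGR8 and 105.8 in R1, and that of the Dlx5 and Dlx6 region 86.6 and 85.6. Regions from 30 kb to under 60 kb had a median of 47.8 per kb in CGR8 (198 regions) and 63.3 in R1 (107 regions), with the Dlx regions among them. The 5 regions of at least 100 kb in each line had a median of 111.8 in CGR8 and 116.2 in R1. The Dlx values thus lay above the median of regions of like width and below that of the widest regions in the genome.

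The next comparison asked which H3K4me3 regions lay inside the Polycomb domain of each pair. All 22 H3K4me3 regions of the windows, 10 in CGR8 and 12 in R1, lay wholly inside an H3K27me3 region of the same line, where 28.2% of all H3K4me3 regions in CGR8 and 29.1% in R1 overlapped H3K27me3. With 54.0% to 82.8% of each window under H3K27me3, an H3K4me3 region in a window had more room to meet it than elsewhere. The count also depends on the window edges, since an H3K4me3 region 1.6 kb before the Dlx3 and Dlx4 window lay outside H3K27me3 in both lines. The score of these regions ran from 40.3 to 956 in CGR8 (median 201) and from 41.8 to 946 in R1 (median 196). Of the 10 in CGR8, 4 exceeded the median score of the list, 332, and of the 12 in R1, 3 exceeded the median of 363.

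Dlx1 and Dlx2 had the highest H3K4me3 scores of the windows, in a pair of regions at either side of the domain's centre. The first, from 71366201 to 71369400 in CGR8 and from 71366201 to 71369200 in R1, scored 956 in CGR8 and 946 in R1. The second, from 71382401 to 71385400 in CGR8 and from 71382201 to 71385400 in R1, scored 734 in CGR8 and 810 in R1. Both exceeded the median of H3K4me3 regions that overlap H3K27me3, which was 321 in CGR8 and 374 in R1. For their width, however, both lay below the median in each line. All H3K4me3 regions within 25% of the width of the first had a median of 1176 in CGR8 and 1248 in R1. For the second these medians were 1132 and 1298. Between the first and the second lay weak regions, with 96.0 and 41.2 in CGR8 and 41.8, 86.5 and 42.1 in R1. The CGR8 region of 96.0 was met by 2 R1 regions, of 41.8 and 86.5, a difference in where a call was split.

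At Dlx5 and Dlx6, 4 H3K4me3 regions were called at matching places in each line, and only 1 of them exceeded the median of its list. This one ran from 6812401 to 6815200 in CGR8 (score 392) and from 6812401 to 6814400 in R1 (score 423). Before it lay a region near the lowest scores of the lists, from 6809401 to 6811000 in CGR8 (40.3) and from 6809801 to 6811200 in R1 (44.3). The lowest scores of the H3K4me3 lists were 38.5 in CGR8 and 37.3 in R1, so that region was barely called in either.

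All 4 regions at Dlx5 and Dlx6 scored lower in CGR8 than in R1, and the gap was wider for the other two. The third region ran from 6823801 to 6825400 in CGR8 (score 82.1) and from 6823401 to 6825400 in R1 (score 132). The fourth ran from 6830401 to 6832200 in CGR8 (1.8 kb, score 139) and from 6828201 to 6832600 in R1 (4.4 kb, score 263). The log2 score ratio, CGR8 over R1, was -0.68 for the third and -0.92 for the fourth, against a median of 0.03 over all 21972 paired H3K4me3 regions. Of all pairs, 3.94% had a ratio as low as the third and 1.70% one as low as the fourth. These shares are over pairs of any score, and pairs of like score were not compared. Per kb, the third region scored 51.3 in CGR8 and 65.8 in R1, while the fourth scored 77.4 in CGR8 and 59.8 in R1. The direction for the fourth region, which was 1.8 kb wide in CGR8 and 4.4 kb in R1, thus turned when the score was taken per kb.

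Dlx3 and Dlx4 had the least H3K4me3, which covered 8.0% of the window in CGR8 and 9.0% in R1. It covered 15.1% and 13.1% of the Dlx1 and Dlx2 window and 15.6% and 19.6% of the Dlx5 and Dlx6 window. The first region ran from 94981201 to 94984200 in CGR8 (score 376) and from 94981001 to 94983400 in R1 (score 294), inside the first H3K27me3 region. The second ran from 95006001 to 95007800 in CGR8 (score 263) and from 95006201 to 95007800 in R1 (score 261), inside the second H3K27me3 region. Each of the 2 main H3K27me3 regions thus held its own H3K4me3 region in both lines, and the third held none. R1 had a further region from 95011201 to 95012600 (score 52.4, rank 21699 of 24618) with no CGR8 partner, the only H3K4me3 region of the 22 found in a single line.

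**Figure D4:**
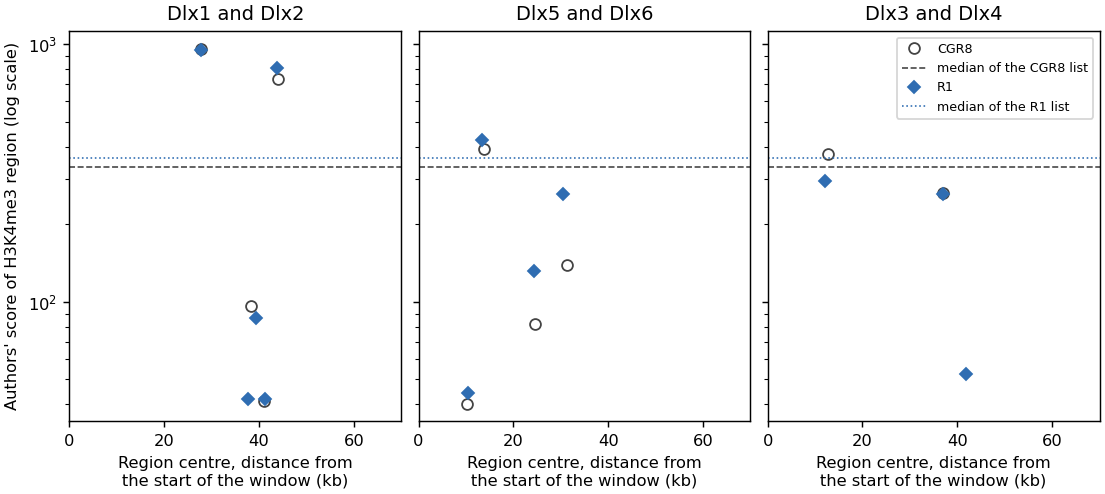
Authors' score of each H3K4me3 region (y axis, log scale) by the distance of its centre from the start of the window in kb (x axis), for CGR8 (open circles) and R1 (filled diamonds), with the median of each whole list as a line. At Dlx1 and Dlx2 a pair of regions between 734 and 956 stands above both medians, and at Dlx5 and Dlx6 the R1 points at 132 and 263 lie above the CGR8 points at 82.1 and 139.

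Several H3K4me3 regions within a single H3K27me3 region were uncommon in the lists. The Dlx1 and Dlx2 domain held 4 in CGR8 and 5 in R1, and the Dlx5 and Dlx6 domain 4 in each line. These counts include regions near the lowest scores of the lists, 38.5 in CGR8 and 37.3 in R1. Such regions scored 41.2 and 40.3 in CGR8 and 41.8, 42.1 and 44.3 in R1. Without them no domain would hold 4. Of all H3K27me3 regions, 0.549% in CGR8 and 0.751% in R1 held 4 or more. Among regions from 30 kb to under 60 kb, which have more room, these shares were 17.2% and 32.7%. The median number held in that width class was 2 in CGR8 and 3 in R1. H3K4me3 lay under 25.1% of the Dlx1 and Dlx2 domain in CGR8 and 24.3% in R1, and under 15.6% and 21.2% of the Dlx5 and Dlx6 domain. Regions of 30 kb to under 60 kb had a median of 9.17% in CGR8 and 13.7% in R1, and those of at least 100 kb 14.2% and 15.9%.

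Bases under both marks in both lines formed 11 stretches in the windows, 5 at Dlx1 and Dlx2, 4 at Dlx5 and Dlx6 and 2 at Dlx3 and Dlx4. The longest were 3000 bp each, at Dlx1 and Dlx2, from 71366201 to 71369200 and from 71382401 to 71385400. At Dlx5 and Dlx6 the longest was 2000 bp and at Dlx3 and Dlx4 2200 bp. The other stretches were 600, 1000 and 1400 bp at Dlx1 and Dlx2, 1200, 1600 and 1800 bp at Dlx5 and Dlx6 and 1600 bp at Dlx3 and Dlx4. The median of all 6308 such stretches was 1400 bp. The longest of several stretches will mostly exceed such a median, so its length does not set the pairs apart. Whether a cell carried both marks at once cannot be read from lists of regions.

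The last comparison asked how well the lines matched at the pairs. Of the 11 H3K27me3 regions, 10 overlapped a region of the other line, 5 of 6 in CGR8 and 5 of 5 in R1. Over the whole lists 67.1% in CGR8 and 81.1% in R1 did so. H3K4me3 overlapped 4 of the 6 in CGR8 and 4 of the 5 in R1, against 41.3% and 48.8% of the lists. The regions of the windows had a higher median width than the lists, and a wider region has more room for an overlap. The region with no partner was a CGR8 region at the edge of the Dlx1 and Dlx2 window, from 71403201 to 71413600 (10.4 kb, score 147), which held no H3K4me3. Of the 22 H3K4me3 regions, 10 of 10 in CGR8 and 11 of 12 in R1 had a partner, against 89.8% and 92.6% of the lists, shares too near to set the pairs apart.

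By bases, H3K27me3 of the windows matched better between the lines than the whole lists did, and H3K4me3 did not. Bases under H3K27me3 in both lines made up 81.8% of those under it in either, against 49.3% over the genome. For H3K4me3 they made up 68.8%, against 74.1% over the genome. For H3K27me3 the share was 75.7% at Dlx1 and Dlx2, 88.4% at Dlx5 and Dlx6 and 82.6% at Dlx3 and Dlx4. For H3K4me3 it was 83.3%, 60.0% and 59.4% at those pairs, so the lower agreement lay at Dlx5 and Dlx6 and at Dlx3 and Dlx4. Neither difference was tested, and regions of like width or score were not compared. In the windows the median width of H3K27me3 regions was 16.4 kb in CGR8 and 15.6 kb in R1. Over the whole lists it was 7600 bp and 6400 bp.

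The borders of the broad domains were near each other in the lines on 1 side and farther apart on the other. At Dlx1 and Dlx2 the starts lay 4800 bp apart and the ends 400 bp, with CGR8 reaching further at the start. At Dlx5 and Dlx6 the starts lay 1000 bp apart and the ends 4800 bp, with CGR8 reaching further at the end. Over 8167 paired H3K27me3 regions, starts and ends each lay a median of 800 bp apart. In each domain 1 border therefore lay several times that median apart, and 1 lay close to it. That median is over regions of any width, most of them narrower. Bases in both lines made up 87.8% of those in either for the Dlx1 and Dlx2 domain and 88.6% for the Dlx5 and Dlx6 domain. The median over all these pairs was 74.4%.

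The scores of paired H3K27me3 regions were close between lines. The log2 score ratio, CGR8 over R1, was 0.02 at Dlx1 and Dlx2, 0.13 at Dlx5 and Dlx6, and 0.14, 0.03 and 0.46 for the regions of Dlx3 and Dlx4. All paired regions had a median of 0.25, so 4 of the 5 lay below it. None of the 5 was 1.5-fold or more away from that median, where 22.1% of all H3K27me3 pairs were. With only 5 regions, this count does not set the Dlx pairs apart. Of the 9 paired H3K4me3 regions, 2 were 1.5-fold or more away, both below the median and both at Dlx5 and Dlx6. Of all H3K4me3 pairs, 13.5% were that far away in either direction and 6.12% below the median. With 1 library per line, these differences at Dlx5 and Dlx6 have no replicate error to be set against, and 1 of them turns direction per kb.

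**Figure D5:**
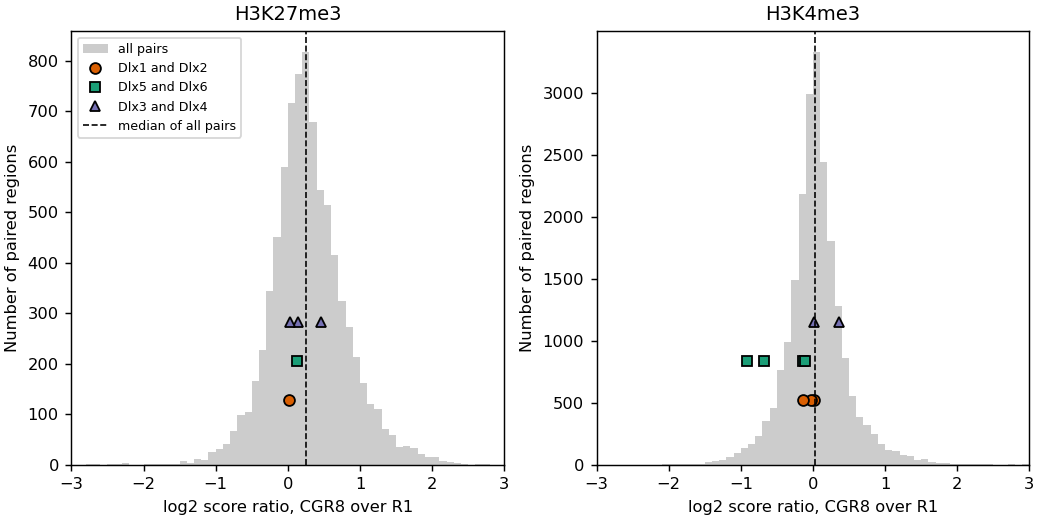
Log2 score ratio, CGR8 over R1 (x axis), of paired regions of H3K27me3 (left) and H3K4me3 (right), as a histogram of all pairs (grey, y axis in number of pairs), with the pairs at the Dlx genes as symbols whose height has no meaning. The H3K27me3 symbols sit near the median of 0.25, and 2 H3K4me3 symbols at Dlx5 and Dlx6 lie at -0.68 and -0.92.

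Read totals were not used here. As implied by the scores, each 200 bp window held a mean of 2.11 reads in CGR8 and 1.92 in R1 for H3K27me3, the R1 value resting on 2 regions. For H3K4me3 it was 0.740 in CGR8 and 0.706 in R1. By these estimates CGR8 was 1.097 times as deep as R1 for H3K27me3, where the R1 value is weakly checked, and 1.049 times for H3K4me3. The part of depth in the score differences between the lines was not tested.

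Regions just outside the windows were as follows. Past the Dlx1 and Dlx2 window, 6.0 kb away, an H3K27me3 region from 71416001 scored 196 in CGR8 and 110 in R1. An H3K4me3 region lay inside it from 71418801 to 71419800 and scored 312 in CGR8 and 256 in R1. Before the Dlx3 and Dlx4 window, 1.6 kb away, an H3K4me3 region scored 169 in CGR8 and 150 in R1, and lay in no H3K27me3 region of either line. A wider window would take in these regions, whose nearest genes were not determined.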

How the data were processed

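The authors deposited 1 list of called regions per library, with a score for each region that has no stated unit or formula. The submitters' processing notes name Bowtie2 2.0.2 (which aligns reads), SICER 1.1 (which calls broad regions), bedtools 2.20.1 and build mm9. Settings, their order and any control library were not given in the sources at hand. Joining of short gaps by the caller widens regions and hides short breaks. Starts and ends were counted from 1, and a region belonged to a window, or was found in the other line, at an overlap of at least 1 bp. Score ratios used regions that met exactly 1 region of the other line, and the reverse. Scores of regions up to 400 bp were explained by a Poisson mean per 200 bp window (within 1e-06) for 8 of 8, 2 of 2, 144 of 144 and 155 of 155 regions (H3K27me3 in CGR8 and R1, H3K4me3 in CGR8 and R1). Each mean was solved from the score of 1 such region, which is thus explained by construction. For H3K27me3 in R1 this leaves a single region as a check. Tiles left out chromosomes Y and M, and chromosome length was the last called position. The windows, members and comparisons were chosen with earlier results of these data known. All regions of the 6 genes' windows are named, which was the rule. Overlap code was tested on simulated data. Python 3.11.15, numpy 2.4.6, scipy 1.17.1, pandas 2.3.3 and matplotlib 3.10.9 were used.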

Additional observations from a re-analysis of the deposited data

How the results depend on the processing

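Of 44 values under other settings, 30 stayed within 1.5 times the main count, or within 1 SD of the main mean cover, and 14 did not. Some of the 30 could not move. The SD comes from the 2 lines, so mean cover without 1 of them always stays within it. Asking that at least 50% of a region be covered by its partner does not enter the cover. With only the higher-scoring 50% of each list, 6 H3K4me3 regions (of 7) were found in both lines instead of 21 (of 22), 7 (of 7) lay inside H3K27me3, and mean H3K4me3 cover was 5.61% instead of 13.2%. With windows widened by 20 kb on each side, 24 H3K4me3 regions (of 26) lay inside H3K27me3 instead of 22 (of 22). In these windows 17 H3K27me3 regions (of 19) were found in both lines instead of 10 (of 11). Mean cover was 49.9% for H3K27me3 and 9.17% for H3K4me3, and the widest H3K27me3 region overlapped every H3K4me3 region in 2 instead of 4 of 6 pairs of window and line. With only regions wholly inside a window, which drops the Dlx5 and Dlx6 domain, that count was also 2 and mean H3K27me3 cover 42.6% instead of 66.2%. Merging regions less than 1000 bp apart gave a mean H3K4me3 cover of 13.9%. Without CGR8 or R1 in turn, 10 (of 10) to 12 (of 12) H3K4me3 regions lay inside H3K27me3, and the widest H3K27me3 region overlapped every H3K4me3 region in 2 of 3 windows either way, counts that are smaller because 1 line is counted. Mean H3K27me3 cover was 60.0% to 72.3%, and mean H3K4me3 cover 12.9% to 13.6%. No paired analysis was possible because the results come from no test. H3K4me3 regions near the lowest score of a list rest on few reads, and whether they were called can depend on depth.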

Other observations

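Before the Dlx5 and Dlx6 domain the lines differed in how H3K27me3 was called. CGR8 had a region from 6759401 to 6781400 (22.0 kb, score 408) that met 2 R1 regions, and the R1 region nearest to the window ran from 6776401 to 6781400 (5.0 kb, score 64.7). Past the window, no H3K27me3 region was called for 653 kb in CGR8 and 429 kb in R1. The Dlx5 and Dlx6 domain thus stood at the edge of a long stretch with no called H3K27me3 in either line. The nearest H3K4me3 region past that window, 55.4 kb away, scored 617 in CGR8 and 741 in R1, and did not lie in H3K27me3.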
